A study of Mus musculus with 4 samples.

Results

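Duct cells with Ascl3 and Foxi1 were taken from the single-cell RNA sequencing (scRNA-seq) of the mouse submandibular gland (SMG) and sublingual gland (SLG). A barcode, which marks 1 droplet, was chosen when it held at least 2 UMIs of Ascl3 and Foxi1 together, under 50 UMIs of Klk1b9, Klk1b11 and Klk1b26 per 10000 UMIs, at most 1 UMI of Slc13a2 and Slc9a3, and 0 UMIs of Ptprc. A UMI, or unique molecular identifier, counts 1 captured RNA molecule. These conditions held for 1064 of the 15707 barcodes, or 6.77% (6.39 to 7.18, exact binomial 95% interval). They are called Ascl3/Foxi1 duct cells here. Since the rule reads Ascl3, Foxi1, the 3 kallikreins, Slc13a2, Slc9a3 and Ptprc, the levels of these genes describe the choice and are not findings.

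The study asked which cells of both glands express secreted proteins that may act on oral microbes. Its 4 scRNA-seq samples are wild-type female C57BL/6N mice of 6 to 8 weeks with no treatment, and the labels name 2 mice where the methods name 3. Glands were dissociated with enzymes and loaded on the 10x Genomics 3′ platform. All samples stand in 1 deposited matrix with 1 barcode suffix, so neither a mouse nor a gland could be assigned to a cell, the matrix counts as 1 sample, and no p-value was computed. The intervals given cover counting error only, within this matrix.

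Ascl3 is a basic helix-loop-helix transcription factor known from duct cells of the salivary glands. Foxi1 is a forkhead transcription factor that controls the genes of ionocytes, mitochondria-rich epithelial cells of the airway, kidney and inner ear. Ionocytes carry a proton pump, the V-ATPase, and channels and carriers for chloride and bicarbonate, and in salivary ducts such transport changes the primary saliva that acinar cells release.

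Ascl3 lies on chr7:109727465-109731726 and Foxi1 on chr11:34204338-34208089, both on the minus strand and both protein coding (GENCODE M21, GRCm38, the build that is also named mm10). Below are the 250 bases before the RefSeq start (GRCm38.p6) of both genes that chose the cells, and of the proton pump gene Atp6v1b1 and the immunoglobulin-superfamily gene Hepacam2, which were high in the cells. Windows were searched on both strands for TGTTTAC and TATTTAC, forms of the forkhead motif, and for CAGCTG, an E-box that reads the same on both strands. The 3 do not overlap one another in the windows shown, and matches are in capitals. The windows are chr7:109731733-109731982 (minus strand), chr11:34208090-34208339 (minus), chr6:83742767-83743016 (plus) and chr6:3494499-3494748 (minus).
Ascl3 upstream window: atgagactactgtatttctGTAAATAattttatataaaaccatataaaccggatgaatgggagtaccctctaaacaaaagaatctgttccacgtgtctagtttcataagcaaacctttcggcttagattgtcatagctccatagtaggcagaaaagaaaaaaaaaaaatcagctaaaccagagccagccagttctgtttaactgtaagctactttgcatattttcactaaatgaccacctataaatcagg
Foxi1 upstream window: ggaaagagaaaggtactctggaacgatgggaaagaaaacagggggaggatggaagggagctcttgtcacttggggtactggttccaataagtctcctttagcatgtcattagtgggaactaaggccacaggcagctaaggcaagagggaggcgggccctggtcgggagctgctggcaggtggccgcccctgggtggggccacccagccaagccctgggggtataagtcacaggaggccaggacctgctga
Atp6v1b1 upstream window: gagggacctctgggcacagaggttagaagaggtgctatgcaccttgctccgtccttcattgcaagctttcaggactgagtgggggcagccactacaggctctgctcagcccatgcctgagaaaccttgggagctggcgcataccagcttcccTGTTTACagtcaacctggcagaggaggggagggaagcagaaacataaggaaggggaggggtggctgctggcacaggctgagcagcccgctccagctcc
Hepacam2 upstream window: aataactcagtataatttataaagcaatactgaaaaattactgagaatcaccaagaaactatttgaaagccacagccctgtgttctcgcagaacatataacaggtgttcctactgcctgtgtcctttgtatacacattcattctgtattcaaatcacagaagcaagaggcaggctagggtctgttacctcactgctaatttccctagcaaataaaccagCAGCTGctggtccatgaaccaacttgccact
TATTTAC stood on the reverse strand 231 bases before the start of Ascl3, where the printed strand reads GTAAATA. The Atp6v1b1 window held TGTTTAC 98 bases before the start, and the Hepacam2 window held CAGCTG 31 bases before it. The Foxi1 window held none of the 3. Over 32851 windows of 27025 genes, 5.76% of windows held TGTTTAC or TATTTAC and 13% held CAGCTG. A gene with several windows can match in any of them, so these shares do not compare directly with counts of genes. Of the 25 genes that led the Ascl3/Foxi1 duct cells, 18 were searched, with 26 windows, and 3 of the 18 genes held a forkhead motif and 5 an E-box. Leading genes left out of the search were Slc4a11, Nrip3, Stap1, Aldh1a3, Plxna4, Bsnd and Slc12a2. Whether their upstream sequences hold these motifs was not tested.

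Of all barcodes, 13310 had no UMI of Ascl3 or Foxi1, 1040 had 1, and 1357 had 2 or more. Of the last, 293 failed another condition, 232 of them the kallikrein limit, 64 the Ptprc condition and 7 the Slc13a2 and Slc9a3 condition, with 10 failing more than 1. Among the 1064 cells chosen, 621 had both transcripts, 284 had Ascl3 alone and 159 had Foxi1 alone. They held 2538 UMIs of Ascl3 and 2019 of Foxi1. A total of 320 cells sat at the minimum of 2 UMIs, 392 had 3 or 4, and 352 had 5 or more, up to 18. The cells had a median of 2912 UMIs (range 1377 to 71341), 1184.5 genes and 11.5% mitochondrial UMIs.

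Levels are UMIs of a gene summed over a group per 10000 UMIs of that group, with the exact Poisson 95% interval in brackets. Around the limits, cells with 2 UMIs of Ascl3 and Foxi1 (n = 320) had a level of 12.2 for Slc12a2 and 2.35 for Slc4a11, and barcodes just outside with 1 UMI (n = 844) had 4.34 and 0.63. Cells at 40 to 50 kallikrein UMIs per 10000 (n = 47) had 24.1 for Slc12a2 and 4.05 for Slc4a11, and barcodes just over the limit at 50 to 60 (n = 26) had 24.2 and 5.22. The 2 sides of the kallikrein limit were thus much alike in these genes, and the 2 sides of the UMI minimum were not. Abundant secretory transcripts made up 56.1% of all UMIs in the cells with 2 UMIs and 77.2% in the barcodes with 1. On the 2 sides of the kallikrein limit they made up 14.6% and 15.7%. Their part in the lower levels at 1 UMI was not tested. There were 13 cells with the 1 allowed UMI of Slc13a2 and Slc9a3 and 3 barcodes just outside, and 30 barcodes failed on 1 UMI of Ptprc.

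Transcripts of acinar cells set the scale of the sums. In 160 of the cells (15%), Mucl2, Pip, Dcpp1, Dcpp2, Dcpp3 and Smgc together reached 2500 UMIs per 10000, and these 160 held 43.7% of the summed UMIs. Abundant secretory transcripts made up 39.8% of all UMIs of the Ascl3/Foxi1 duct cells, 10.5% in the 904 cells under that limit and 77.5% in the 160 over it. Leukocyte barcodes, which should make none, had 28.6%, and the part of free RNA and of droplets with more than 1 cell was not tested. Levels below are over all 1064 cells. Since the 160 cells add mainly secretory UMIs to the totals, levels of other genes were mostly higher in the 904 cells under the limit. Values with the limit set in every group are given for most lists and for the main genes.

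The label was checked against marker lists. Ascl3 and Foxi1 are themselves ionocyte markers. Without them, 13 of 14 ionocyte markers were detected and Atp6v0a4 was at 0. The same held in kallikrein-rich duct cells, leukocyte barcodes and Mucl2-rich acinar barcodes, so detection alone does not set the cells apart. The 14 markers summed to 24.2 UMIs per 10000 (23.8 to 24.6) in the Ascl3/Foxi1 duct cells. Kallikrein-rich, Slc13a2/Slc9a3 and other luminal duct cells had 13.6, 4.29 and 12.5, leukocyte barcodes 1.28 and Mucl2-rich acinar barcodes 0.149. With the secretory limit in every group the sums were 39.5 in the Ascl3/Foxi1 duct cells and 17.2, 7.35 and 12.5 in the other duct groups. All 10 duct markers were present, as they were in the 3 other duct groups and in Mucl2-rich acinar barcodes. Without Krt7, Krt18 and Krt19, which chose other groups, the remaining 7 summed to 17.3, against 25.7, 31.2 and 41.3 in the 3 other duct groups and 1.13 in leukocyte barcodes. Myeloid markers summed to 3.62, against 138 in leukocyte barcodes, and lymphoid markers to 0.207 with Cd3e, Cd3d and Ms4a1 at 0. Basal, endothelial and fibroblast lists lay between 0.254 and 0.783. Tuft cell markers summed to 0.0413, with 5 of 6 at 0, and neuroendocrine markers to 0.00376. Serous acinar markers were high, at 2235, and demilune or mucous markers at 701, and both were lower under the secretory limit, at 533 and 66.6. Leukocyte barcodes had 1905 and 244. Kallikrein-rich, Slc13a2/Slc9a3 and other luminal duct cells had 1482, 2827 and 742 for serous markers, and 387, 180 and 151 for demilune or mucous markers. The cells thus carried duct and ionocyte markers. Acinar transcripts were found beside them, as in leukocyte barcodes and the other duct groups, and their source was not tested.

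The cells were compared with 3 other duct groups. Kallikrein-rich duct cells (n = 892) held 50 or more kallikrein UMIs per 10000, as granular duct cells do. Slc13a2/Slc9a3 duct cells (n = 166) held 2 or more UMIs of these carriers. Both groups had at most 1 UMI of Ascl3 and Foxi1. No gate used the clusters described below, so barcodes that cluster with the Ascl3/Foxi1 duct cells could remain in the other groups. Other low-kallikrein luminal duct cells (n = 607) were chosen on 3 or more UMIs of Krt7, Krt18 and Krt19, with no UMI of Ascl3 or Foxi1 and under the secretory limit, and 56 of them had mucous transcripts (Muc19 and A2ml1) at 10 or more per 10000. Median depths were 2490.5, 5419.5 and 2469 UMIs. Genes with at least 20 UMIs over both groups were compared, and a ratio of 2 or more in either direction was counted.

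Against kallikrein-rich cells, 745 of 10226 genes (7.29%) were at least 2-fold higher and 566 (5.53%) lower in Ascl3/Foxi1 duct cells. Against Slc13a2/Slc9a3 cells the counts were 1099 of 10005 (11%) higher and 879 (8.79%) lower. Against other luminal cells 366 of 10181 (3.59%) were higher and 1473 (14.5%) lower. That last split turned with the scaling, to 761 higher and 548 lower when secretory transcripts were left out of the totals, and to 717 and 585 when the median ratio was set to 1. The median log2 ratio over all genes was 0.07, -0.04 and -0.45 in the 3 comparisons, and 0.37, -0.11 and 0.14 under the secretory limit. In all 3 comparisons, 170 of 9815 genes (1.73%) were higher and 111 (1.13%) lower. With the secretory limit in every group, 1364 (13.9%) were higher and 388 (3.96%) lower of 9801 against kallikrein-rich cells, 1045 (10.9%) and 1069 (11.1%) of 9595 against Slc13a2/Slc9a3 cells, and 908 (9.13%) and 584 (5.87%) of 9943 against other luminal cells. Those that passed in all 3 were then 343 (3.65%) and 91 (0.969%) of 9391.

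The 25 leading genes, ranked by the ratio to the nearest of the 3 groups among genes at 1 UMI per 10000 or more, were in order Foxi2, Aldh1a1, Gng4, Mup4, Slc4a11, Hepacam2, Pde1c, Nrip3, Stap1, Adgrf5, Aldh1a3, Itih5, Plcg2, Cpxm2, Rcan2, Plxna4, Bsnd, Slc43a2, Itpr2, Serpinb9, Pdlim3, Vps36, Pfkp, Slc12a2 and S100a6. For Mup4, a major urinary protein gene, the level of 1.20 came from 4.14% of the cells, and it was 0.0367 in the cells under the secretory limit.

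**Figure D1:**
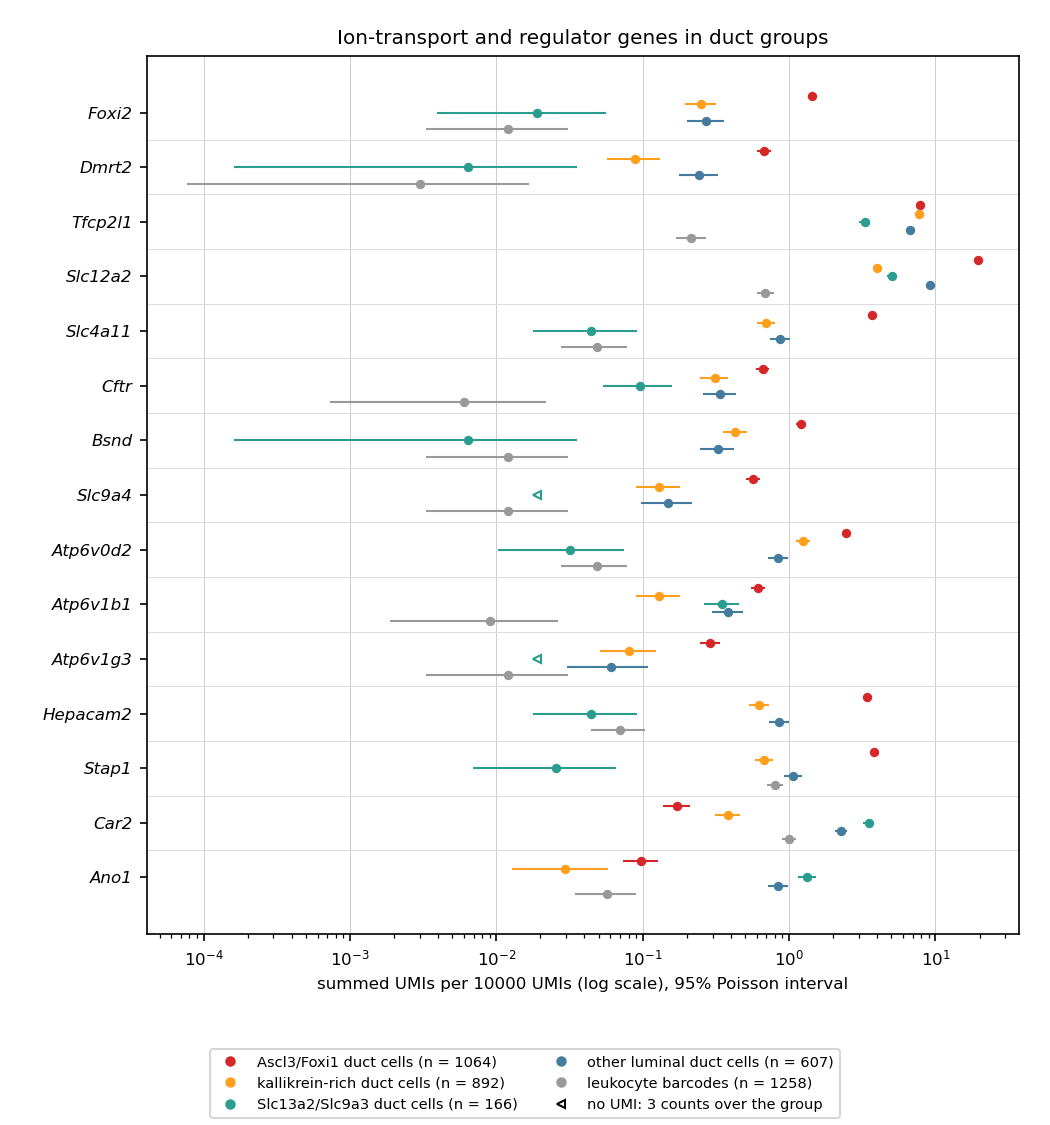
Levels of regulators, ion-transport genes and other ionocyte genes in Ascl3/Foxi1 duct cells (red), 3 other duct groups and leukocyte barcodes, as summed UMIs per 10000 on a log axis. Bars are exact Poisson 95% intervals and open triangles mark groups with no UMI, set to 3 counts. Foxi2, Slc12a2, Slc4a11, Bsnd, Hepacam2 and Stap1 are highest in red, Car2 is lowest among the duct groups, and Tfcp2l1 is close to the kallikrein-rich value.

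Among transcription factors, Foxi2, a forkhead relative of Foxi1, had a level of 1.44 (1.34 to 1.55) in Ascl3/Foxi1 duct cells. It was 0.251 in kallikrein-rich, 0.0191 in Slc13a2/Slc9a3 and 0.270 in other luminal cells. The log2 ratios were 2.52 (2.16 to 2.90), 6.24 (4.69 to 8.52) and 2.42 (2.00 to 2.86). Under the secretory limit its level was 2.36. Dmrt2, a DM-domain factor, had a level of 0.676, against 0.0885, 0.00636 and 0.242. Foxi2 and Dmrt2 were the 2 listed factors at least 2-fold higher in all 3 comparisons. Under the limit in every group 5 of 29 were, the others being Elf3, Id1 and Id3. Over all genes, 1.73% were higher in all 3 comparisons, and 3.65% under the limit.

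Tfcp2l1, a factor of kidney intercalated cells, had a level of 7.80 in Ascl3/Foxi1 duct cells and 7.67, 3.30 and 6.71 in the other groups. Its log2 ratios were 0.02 (-0.05 to 0.10), 1.24 (1.11 to 1.37) and 0.22 (0.12 to 0.31), so it passed 2-fold against Slc13a2/Slc9a3 cells alone. Under the secretory limit its level was 12.6 and the ratios were 0.34, 1.16 and 0.91. Elf3, an epithelial ETS factor, was at 2.59 against 1.41, 0.706 and 1.69, and its log2 ratios under the secretory limit were 1.27, 1.86 and 1.30. Of the transcription factor and Notch genes, 5 of 32 were higher and 3 lower against kallikrein-rich cells, 8 and 13 of 35 against Slc13a2/Slc9a3 cells, and 3 and 9 of 33 against other luminal cells. The counts became 8 and 2 of 30, 8 and 16 of 33, and 5 and 6 of 32 with the secretory limit. Over all genes the shares higher and lower were 7.29% and 5.53%, 11% and 8.79%, and 3.59% and 14.5%, and with the limit 13.9% and 3.96%, 10.9% and 11.1%, and 9.13% and 5.87%.

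No listed factor was 2-fold lower in all 3 comparisons. The receptor Notch1 was at 0.0507, against 0.0406 in kallikrein-rich, 0.324 in Slc13a2/Slc9a3 and 0.226 in other luminal cells. Hey1, a Notch target, was at 0.0113, against 0.0258, 0.102 and 0.121, and had too few UMIs to be compared with kallikrein-rich cells. Sox9, a factor of duct progenitors, was at 2.57, against 2.31, 5.29 and 5.74, with a log2 ratio of -0.58 to other luminal cells under the secretory limit. These 3 genes were thus lower than in the latter groups and not lower, or not compared, against kallikrein-rich cells. Foxi3, Ascl2, Hmx2, Hmx3 and Pparg had no UMI in the 1064 cells, which allows a level of up to 0.00564 (3 counts over the group).

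Of 18 chloride and bicarbonate transport genes compared, 9 were higher and 2 lower than in kallikrein-rich cells, 12 and 3 against Slc13a2/Slc9a3 cells, and 6 and 5 against other luminal cells. The medians of their log2 ratios were 0.77, 1.74 and 0.39. The counts under the limit were 7 and 0 of 17, 11 and 4 of 17, and 9 and 2 of 18, and the medians 0.80, 2.10 and 1.09, beside 0.37, -0.11 and 0.14 over all genes. Among all genes the shares higher were 7.29%, 11% and 3.59%, and the shares lower 5.53%, 8.79% and 14.5%. With the limit they were 13.9%, 10.9% and 9.13%, and 3.96%, 11.1% and 5.87%. Slc12a2, Slc4a11, Bsnd, Slc9a4 and Slc9a2 were among the listed genes higher in all 3 comparisons, and Cftr joined them under the secretory limit.

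Slc12a2, the sodium-potassium-chloride cotransporter that brings chloride into secretory cells, had a level of 19.4 (19.0 to 19.8). It was 3.97, 5.01 and 9.16 in kallikrein-rich, Slc13a2/Slc9a3 and other luminal cells, with log2 ratios of 2.29 (2.20 to 2.38), 1.95 (1.85 to 2.06) and 1.08 (1.01 to 1.16). Under the secretory limit the level was 30.8 and the ratios were 2.85, 2.10 and 1.75. A UMI of Slc12a2 was found in 96.8% (95.6 to 97.8) of the Ascl3/Foxi1 duct cells. With every cell thinned to 1000 UMIs, the share was 84.6%, against 21.7%, 42.2% and 44.2% in the other duct groups and 4.93% in leukocyte barcodes, whose median depth was 2017.5 UMIs.

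Slc4a11, a plasma membrane carrier of the bicarbonate transporter family that moves protons or hydroxyl ions, had a level of 3.67 (3.51 to 3.84). The other groups had 0.697, 0.0445 and 0.871, and the log2 ratios were 2.40 (2.18 to 2.62), 6.37 (5.32 to 7.68) and 2.08 (1.84 to 2.32). The thinned share of cells with a UMI was 38.2%, against 5.72%, 0.602% and 7.74%, and 0.636% in leukocyte barcodes. The share in Slc13a2/Slc9a3 cells was thus at the leukocyte value. Its level was 6.01 and its log2 ratios were 2.87, 6.18 and 2.79 with the secretory limit.

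Bsnd, which encodes barttin, a chloride channel subunit, had a level of 1.21 (1.12 to 1.31) against 0.428, 0.00636 and 0.325. The log2 ratios were 1.5 (1.22 to 1.80), 7.58 (5.09 to 12.88) and 1.90 (1.51 to 2.31). The level was 2.02 in the cells under the secretory limit.

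Cftr, the chloride channel of airway ionocytes, had a level of 0.661 (0.594 to 0.734) against 0.310, 0.0954 and 0.336. Its log2 ratios were 1.09 (0.75 to 1.46), 2.79 (2.05 to 3.65) and 0.98 (0.58 to 1.39), the last becoming 1.73 under the secretory limit, where the level was 1.11. A UMI of Cftr was seen in 8.74% of the thinned cells, against 2.80%, 1.81% and 2.31%, and 0.0795% in leukocyte barcodes.

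The sodium-proton exchangers Slc9a4 and Slc9a2 were at 0.569 and 0.235. Slc9a4 was at 0.129 and 0.149 in kallikrein-rich and other luminal cells, with no UMI in Slc13a2/Slc9a3 cells, against whose 3-count limit it was at least 4.90 higher on the log2 scale.

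Other ion genes were low. Ano1, the calcium-activated chloride channel of acinar cells, was at 0.0977 against 1.33 in Slc13a2/Slc9a3 and 0.843 in other luminal cells, and 0.0295 in kallikrein-rich cells. The bicarbonate cotransporter Slc4a4 was at 0.0488. Slc26a4 (pendrin) and Slc4a9, anion exchangers of kidney intercalated cells, had no UMI.

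Carbonic anhydrases make bicarbonate and protons from carbon dioxide. Of 5 compared, 3 were lower than in kallikrein-rich, 3 than in Slc13a2/Slc9a3 and 4 than in other luminal cells, with 2 lower in all 3 comparisons. These counts became 1, 3 and 3, and 1 in all 3, with the secretory limit. Over all genes, 1.13% were lower in all 3 comparisons, and 0.969% with the limit. The shares of all genes lower were 5.53%, 8.79% and 14.5%, and 3.96%, 11.1% and 5.87% with the limit. The 1 carbonic anhydrase that was higher was the secreted Car6 against other luminal cells, which ended under the secretory limit (log2 ratio -0.49). Cytosolic Car2 was at 0.171, against 0.380, 3.49 and 2.26, with log2 ratios of -1.15 (-1.57 to -0.73), -4.35 (-4.69 to -4.03) and -3.72 (-4.07 to -3.39). Under the secretory limit the ratio to kallikrein-rich cells was -0.98. Car12, a membrane-bound form, was at 0.248 against 1.05, 1.43 and 1.32.

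The V-ATPase pumps protons across membranes. Of 21 subunit and accessory genes compared, 6 were higher than in kallikrein-rich cells, 9 than in Slc13a2/Slc9a3 cells and 3 than in other luminal cells, and none was 2-fold lower. The counts were 11, 9 and 8 under the secretory limit. The medians of their log2 ratios were 0.84, 0.82 and 0.28, beside 0.07, -0.04 and -0.45 over all genes. The shares of all genes higher were 7.29%, 11% and 3.59%, and 13.9%, 10.9% and 9.13% under the limit.

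Atp6v0d2, the tissue-restricted form of the d subunit, had a level of 2.45 (2.32 to 2.59) against 1.25, 0.0318 and 0.843. Atp6v1b1, the B subunit of acid-secreting epithelia, was at 0.616 against 0.129, 0.350 and 0.380. Atp6v1g3, a tissue-restricted G subunit, was at 0.289 against 0.0811 and 0.0606, with no UMI in Slc13a2/Slc9a3 cells. It was the V-ATPase gene higher in all 3 comparisons, as 1.73% of all genes were.

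Among widely expressed subunits, Atp6v0b was at 6.05 against 2.98, 2.02 and 4.55, and its log2 ratio to other luminal cells was 0.41. Atp6v1e1 was at 3.92 against 2.06, 0.999 and 2.44, and passed 2-fold against Slc13a2/Slc9a3 cells alone. Atp6v1g1, Atp6v1f and Atp6v0e passed in no comparison, with log2 ratios to Slc13a2/Slc9a3 cells of -0.40, 0.39 and 0.25. Under the secretory limit Atp6v0b, Atp6v1e1, Atp6v0d2, Atp6v1g3 and the accessory gene Atp6ap2 were at least 2-fold higher in all 3 comparisons. The share of all genes that were was 3.65%. Atp6v0a4, the a subunit of acid-secreting kidney cells, and Atp12a, another proton pump, had no UMI.

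**Figure D2:**
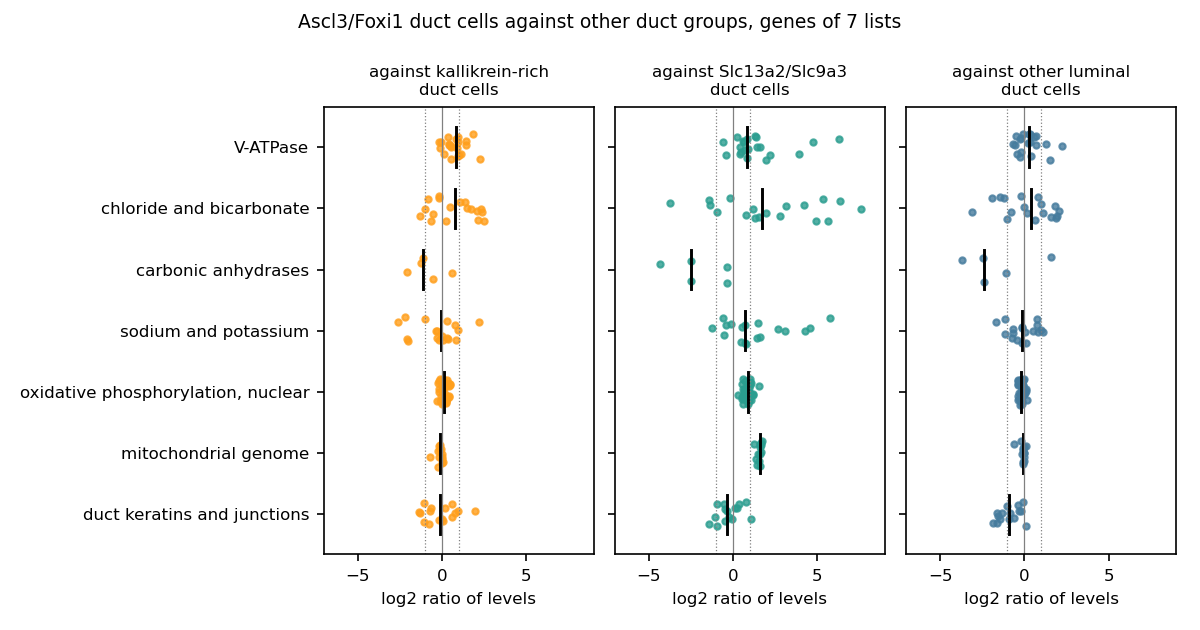
Log2 ratios of levels in Ascl3/Foxi1 duct cells to each of 3 other duct groups, 1 point per gene, for 7 gene lists. The black bar is the median of a list and dotted lines mark 2-fold. V-ATPase genes have medians of 0.84, 0.82 and 0.28, carbonic anhydrases lie mostly below 0, and the 13 genes of the mitochondrial genome are all over 2-fold higher than in Slc13a2/Slc9a3 cells.

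Most sodium and potassium transport genes lay within 2-fold of the kallikrein-rich cells. Of 18, 1 was higher and 4 lower than in kallikrein-rich cells, 8 and 1 against Slc13a2/Slc9a3 cells, and 1 and 3 against other luminal cells, and none differed in all 3. Under the limit the counts were 3 and 5, 8 and 2, and 5 and 2 of 18. The shares of all genes higher were 7.29%, 11% and 3.59%, and those lower 5.53%, 8.79% and 14.5%. Under the limit they were 13.9%, 10.9% and 9.13% higher and 3.96%, 11.1% and 5.87% lower. Fxyd2, the gamma subunit of the sodium pump, was at 69.6 against 55.5, 3.01 and 41.8, with log2 ratios of 0.33, 4.53 and 0.73. These were 0.70, 4.48 and 1.44 under the secretory limit, where its level was 113. Scnn1b, a subunit of the epithelial sodium channel, was at 1.71, as in kallikrein-rich cells at 1.71, and above 0.0318 and 0.794.

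Kcnma1, the large-conductance potassium channel, was at 1.09 against 0.240, 0.681 and 0.755. Sgk1, a kinase that raises sodium channel activity, was at 0.498 against 2.29 in kallikrein-rich cells, a log2 ratio of -2.20 (-2.41 to -1.99). The potassium channels Kcnj16 and Kcnj15 were at 0.0582 and 0.0733 against 0.361 and 0.302 there.

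Mitochondrial transcripts differed most from those of Slc13a2/Slc9a3 cells. All 13 protein-coding genes of the mitochondrial genome and 8 of 35 nuclear oxidative phosphorylation genes were at least 2-fold higher than in Slc13a2/Slc9a3 cells, with medians of 1.60 and 0.87 on the log2 scale. With the secretory limit in every group the counts were 13 and 12. Of all genes, 11% were at least 2-fold higher than in Slc13a2/Slc9a3 cells, and 10.9% with the limit. None of either list passed 2-fold against kallikrein-rich or other luminal cells. The median share of mitochondrial UMIs was 11.5% in Ascl3/Foxi1 duct cells, 7.98% in kallikrein-rich, 3.79% in Slc13a2/Slc9a3 and 6.48% in other luminal cells. Against other luminal cells the median log2 ratio of the 13 genes was -0.06, and 0.60 under the secretory limit, where mitochondrial transcripts were 14.4% of the summed UMIs of the Ascl3/Foxi1 duct cells and 9.57% of those of other luminal cells. Transcripts induced by dissociation, such as Fos, differed by 2-fold in 0, 2 and 2 of 14 genes, all lower in the Ascl3/Foxi1 duct cells. With the limit the counts were 0, 2 and 0. The shares of all genes that were lower were 5.53%, 8.79% and 14.5%, and with the limit 3.96%, 11.1% and 5.87%.

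Of 16 other ionocyte markers compared, 11, 14 and 10 were higher in the 3 comparisons and none lower, with medians of 1.58, 3.76 and 1.35. Under the limit 13, 14 and 15 were higher, and 11 in all 3, where 3.65% of all genes were higher in all 3. Of all genes, 7.29%, 11% and 3.59% were higher, and 13.9%, 10.9% and 9.13% under the limit. Bsnd, Stap1, Hepacam2, Dgki, Pde1c and Itpr2 were among the markers higher in all 3. Cftr, Atp6v0d2, Asgr1 and Parm1 joined them under the secretory limit. Hepacam2 had a level of 3.39 (3.23 to 3.55) against 0.627, 0.0445 and 0.854, and of 5.53 under the secretory limit. Stap1, an adaptor protein also known from leukocytes, was at 3.79 against 0.675, 0.0254 and 1.07, and at 0.801 in leukocyte barcodes. It was 6.22 in the cells under the limit.

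Several leading genes are described next, and no list of their kind was counted. Itpr2, a calcium release channel, was at 3.60 against 1.14, 0.503 and 1.36, and Plcg2, a phospholipase C, at 1.48 against 0.376, 0.102 and 0.474. Pde1c, a calcium-dependent phosphodiesterase, was at 1.78 against 0.472, 0.172 and 0.435. Gng4, a G protein subunit, was at 1.47 against 0.247, 0.0127 and 0.336.

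Aldh1a1 was at 1.80 against 0.280, 0.127 and 0.369, and Aldh1a3 at 1.62 against 0.225, 0.0573 and 0.485. Both encode retinaldehyde dehydrogenases. Their log2 ratios to the nearest group were 2.29 and 1.74.

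Of 13 receptor genes compared, 2 were higher and 2 lower than in kallikrein-rich cells, 2 and 2 against Slc13a2/Slc9a3 cells, and 1 and 2 against other luminal cells. Over all genes 7.29%, 11% and 3.59% were higher and 5.53%, 8.79% and 14.5% lower. Counts under the limit were 3 and 2, 2 and 2, and 4 and 2. Kit, the receptor for stem cell factor, was at 1.06, against 0.181 in kallikrein-rich, 1.09 in Slc13a2/Slc9a3 and 1.11 in other luminal cells. The prolactin receptor Prlr was lower in all 3 comparisons, at 0.186 against 0.409, 0.821 and 1.18. Adra1a, an adrenergic receptor, was at 0.349 against 0.383, 0.0127 and 0.187. P2ry14, a purinergic receptor on the ionocyte list, had a level of 0.00376.

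The 10 genes lowest against the lowest of the 3 groups were Cdo1, Car12, Foxq1, Cyp2f2, Plcb4, Timp3, Clu, Pik3r1, Krt8 and Klf4. Cyp2f2, a cytochrome of secretory epithelia, was at 2.98 against 9.84, 17.5 and 17.3. Cdo1, which breaks down cysteine, was at 0.203 against 1.04, 1.20 and 1.10. Foxq1, a forkhead factor of another class, was at 0.432 against 1.62, 2.37 and 2.22.

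Duct keratins were uneven. Krt8 was at 4.85 against 10.1, 13.2 and 17.8, with log2 ratios of -1.07 (-1.14 to -0.99), -1.45 (-1.53 to -1.36) and -1.88 (-1.95 to -1.80), and -0.81 against kallikrein-rich cells under the secretory limit. Krt18 was at 11.2 against 17.7, 21.7 and 34.6, where the last group was chosen on it. Krt7, a duct keratin that also entered that choice, was at 4.38 against 3.86, 2.09 and 4.62. Of the keratin and junction genes, 1 of 16 was higher and 4 lower than in kallikrein-rich cells, 1 and 2 of 15 against Slc13a2/Slc9a3 cells, and 0 and 7 of 15 against other luminal cells. With the secretory limit the counts were 2 and 1 of 16, 0 and 6 of 15, and 0 and 4 of 15. Among all genes 7.29%, 11% and 3.59% were higher and 5.53%, 8.79% and 14.5% lower. With the limit 13.9%, 10.9% and 9.13% were higher and 3.96%, 11.1% and 5.87% lower.

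Of the secreted and defence genes that the study and the wider field examine, 3 of 18 were higher and 1 lower than in kallikrein-rich cells, 4 and 1 against Slc13a2/Slc9a3 cells, and 9 and 5 against other luminal cells. With the secretory limit these became 0 and 1 of 17, 5 and 4 of 18, and 1 and 6 of 18. For all genes the shares were 7.29%, 11% and 3.59% higher and 5.53%, 8.79% and 14.5% lower. These shares became 13.9%, 10.9% and 9.13% higher and 3.96%, 11.1% and 5.87% lower with the limit. Bpifa2, a secreted bactericidal family protein, was at 17.2 in all the cells and at 1.86 in those under the limit, and its ratio to other luminal cells turned from 2.42 to -0.78. Mucl2, the main secretory transcript, was at 2042 and 491. Wfdc2, a protease inhibitor family protein, was at 6.41 and 10.4, against 12.7, 1.93 and 6.16 in the 3 other groups. Serous acinar markers, of which Mucl2 is one, were lower under the limit, as Bpifa2 was, while Wfdc2 was higher. Their part was not tested.

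The cells were also placed in a clustering of all barcodes from which the 8 rule genes had been removed. Of the 1064 cells, 865, or 81.3% (78.8 to 83.6), fell in cluster 3 of 13, which held 1552 barcodes. A further 69 were in cluster 2, 38 in cluster 0 and 92 in 9 others. Cluster 3 was led by Slc4a11, Ascl3, Hepacam2, Foxi1, Nrip3, Fxyd2, Gng4, Stap1, Atp6v0d2 and Ldhb. Members of the group made up 57.6% of the nearest neighbours of an Ascl3/Foxi1 duct cell on average, 3.39% of those of a kallikrein-rich cell, 13.1% of those of an other luminal cell and 6.94% over all barcodes.

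The cells outside cluster 3 differed from those inside it. The 199 outside had a level of 33.7 for Bpifa2 and 71.1% secretory UMIs, and the 865 inside had 2.51 and 12.1%. Slc4a11 was at 0.84 outside and 6.17 inside, and Foxi2 at 0.33 and 2.43. Cluster 2 was led by Igha, Igkc, Jchain and Scgb2b24, and cluster 0 by Bpifa2 and Dcpp genes.

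Cluster 3 also held 687 barcodes that the rule did not take. Of these, 481 had under 2 UMIs of Ascl3 and Foxi1, 297 were at or over the kallikrein limit, 15 had Ptprc and 2 had Slc13a2 and Slc9a3, with overlaps. Among them, 220 barcodes with no UMI of Ascl3 or Foxi1 had Slc12a2 at 22.6 and Slc4a11 at 4.43. Another 261 with 1 UMI had 24.8 and 5.14. Those values lay below the 31.7 and 6.17 of the chosen cells in the cluster and above those of the 3 other duct groups. They describe cells that were clustered on these same genes. The gates of the 3 other duct groups did not leave out cluster 3, so their levels can include such barcodes. The alternatives given below include a comparison with barcodes outside cluster 3. Over all alternatives, the log2 ratio to other luminal cells ran from 1.04 to 6.42 for Hepacam2 (1.99 in the main comparison). For Slc4a11 it ran from 1.14 to 6.06 (2.08 in the main comparison).

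**Figure D3:**
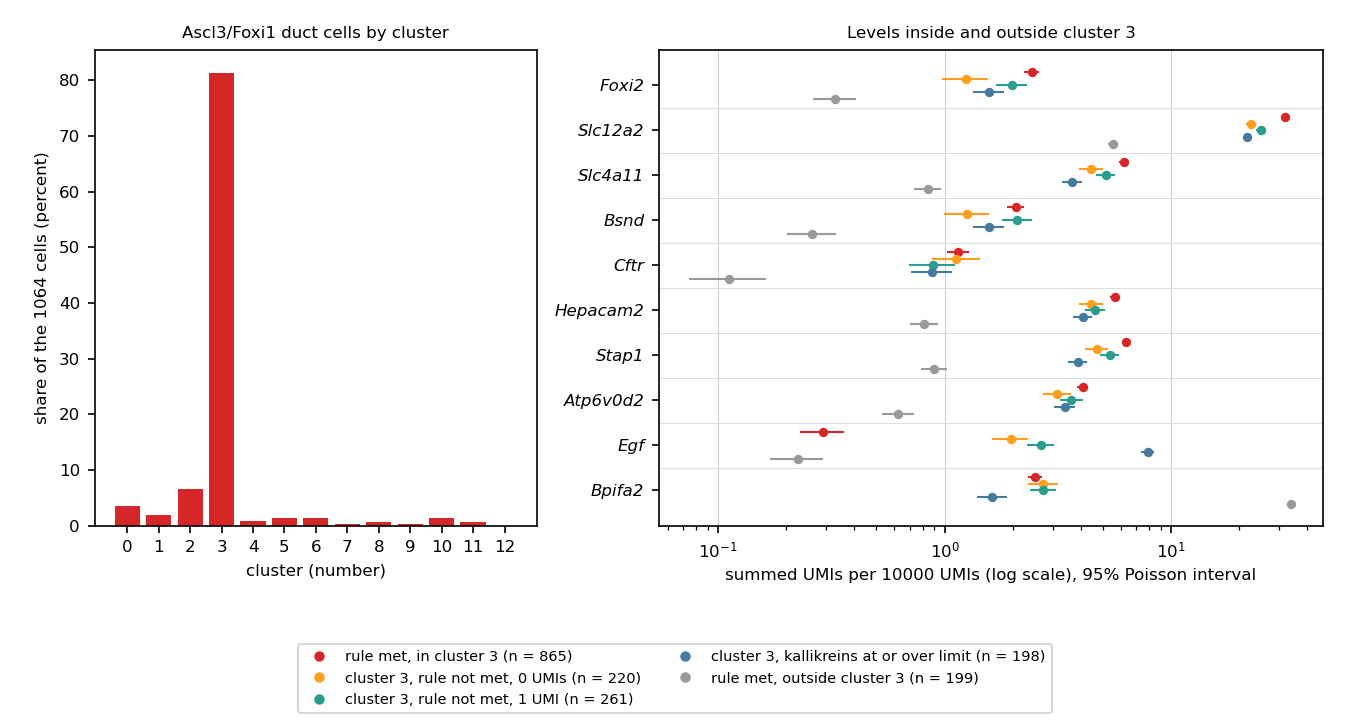
Left, share of the 1064 Ascl3/Foxi1 duct cells in each of 13 clusters, with 81.3% in cluster 3. Right, levels as summed UMIs per 10000 on a log axis with exact Poisson 95% intervals for cells inside and outside cluster 3 and for barcodes of cluster 3 that did not meet the rule. Cells outside have the lowest Slc4a11 (0.84) and the highest Bpifa2 (33.7).

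Cells with Ascl3, Foxi1 or both were close in level in the 5 leading genes given here, and other genes were not compared. Among cells under the secretory limit, 539 cells had both, 236 had Ascl3 alone and 129 had Foxi1 alone. Slc4a11 was at 6.11, 5.77 and 5.91 in these, Foxi2 at 2.40, 2.25 and 2.34, and Slc12a2 at 31.3, 29.7 and 30.3. Hepacam2 was at 5.49, 5.87 and 5.08 and Stap1 at 6.21, 6.22 and 6.26. Among cells at exactly 2 UMIs, 109 of 320 had 1 of each.

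The cells were then divided by kallikrein level. Of those under the secretory limit, 251 cells had no UMI of the 3 kallikreins, 361 had under 10 per 10000 and 292 had 10 to 50, and 215 more barcodes met every condition except the limit of 50. Klk1, the main glandular kallikrein, was at 61.2, 145 and 509 in the 3 tiers of cells, and at 1160 in the barcodes over the limit. This order describes the division, since the tiers were cut on Klk1b genes, which are near copies of Klk1 and may share its reads. The growth factor Egf, made by granular duct cells, was at 0.0611, 0.160 and 0.603, and the barcodes over the limit had 7.34. Kallikrein-rich cells had 8.14.

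The 10 lowest genes named above were each higher at every step from the first to the third tier, though the intervals of neighbouring tiers overlapped for Klf4. They were picked from these same cells for low ratios to groups that include kallikrein-rich cells, and the tiers were cut on rule genes. Their order thus describes the choice and is not a separate finding. Of the 10, 8 were higher again over the limit, with Foxq1 and Clu as exceptions. No share of all genes that climb in this way was counted beside them. Cyp2f2 was at 1.86, 3.80 and 6.75 in the 3 tiers and at 8.42 over the limit. Foxq1 was at 0.0916, 0.433, 1.18 and 1.02, and Sgk1 at 0.321, 0.537, 1.13 and 2.18. Krt8 was at 5.32, 7.32, 8.63 and 9.19. In the tier with no kallikrein UMI these 4 genes were furthest from the kallikrein-rich cells, which had 12.9, 2.05, 2.96 and 12.9.

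Of the 25 leading genes, 17 were lower at each step over the 3 tiers and the barcodes over the limit, and none was higher at each. The leading genes were picked from these same cells for high ratios to groups that include kallikrein-rich cells, and the tiers were cut on rule genes. This order, too, describes the choice and is not a separate finding. The share of all genes with such an order was not counted, so whether it is particular to the leading genes was not tested. Slc12a2 was at 35.4, 31.7, 27 and 20.6, against 4.26 in kallikrein-rich cells. Slc4a11 was at 7.33, 6.31, 4.86 and 3.43, against 0.819. Foxi2 was at 2.78, 2.49, 1.96 and 1.47, and Hepacam2 at 5.97, 5.81, 4.93 and 3.81. Bsnd was at 1.91, 2.08, 2.02 and 1.52 and Tfcp2l1 at 12.1, 12.6, 12.9 and 12.1, so these 2 genes had no such order. Since kallikreins make up part of the total in each tier, and free RNA adds to every droplet, the part of both in these orders was not tested.

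**Figure D4:**
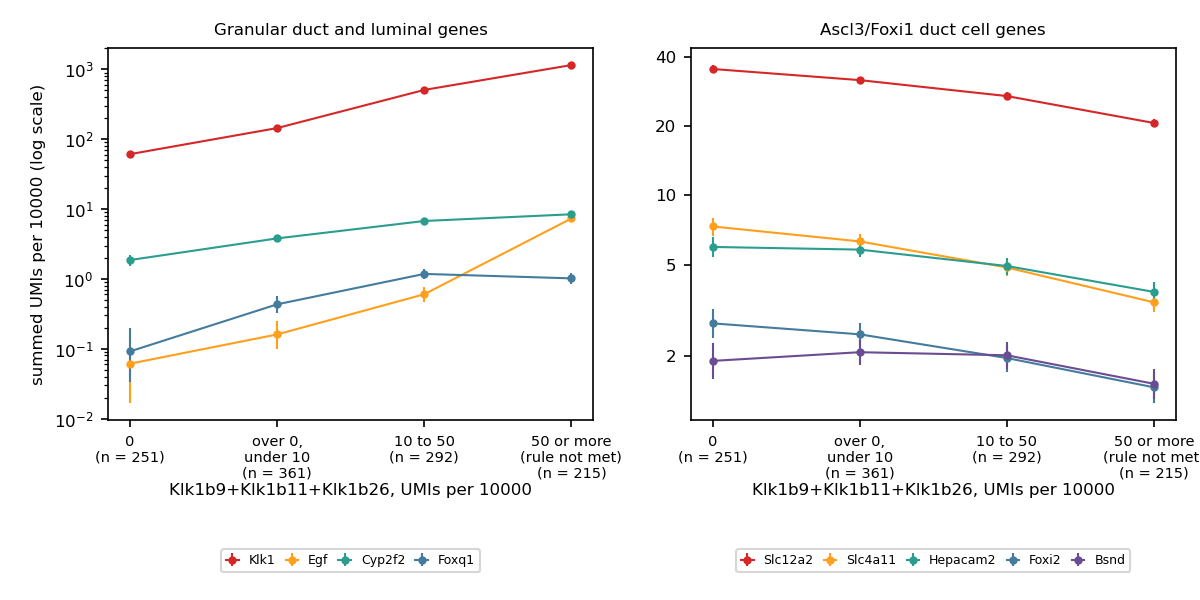
Levels as summed UMIs per 10000 on log axes, with exact Poisson 95% intervals, for Ascl3/Foxi1 duct cells under the secretory limit in 3 tiers of kallikrein level and for barcodes over the kallikrein limit. Left, Klk1, whose order describes the division, and Egf and Cyp2f2 climb to the right, with Egf from 0.0611 to 7.34, and Foxq1 levels off. Right, Slc12a2 goes from 35.4 to 20.6 and Slc4a11 from 7.33 to 3.43, and Bsnd stays near 2. Cyp2f2, Foxq1 and the genes on the right were picked from these same cells.

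Over the 13 clusters, the genes most like Ascl3 among 2217 compared, by Pearson's r of log2 levels, were Nrip3 (0.992), Foxi1 (0.982), Gng4 (0.981), Aldh1a3 (0.980), Foxi2 (0.980) and Slc4a11 (0.976), then Pde1c, Hepacam2, Hspb7 and Cpxm2. Among those most like Foxi1 were Slc4a11 (0.995), Nrip3 (0.989), Ascl3, Aldh1a3, Foxi2, Gng4, Cpxm2, Pde1c and Plxna4. The points share 1 matrix, and cluster 3 lies far from the other 12 in these genes. Ascl3 was at 5.33 and Foxi1 at 4.16 there, and the highest level in any other cluster was 0.350 for Ascl3, in cluster 10, and 0.309 for Foxi1, in cluster 4.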

How the data were processed

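Single cells of the SMG and SLG were measured by 10x Genomics 3′ scRNA-seq. The authors deposited 1 matrix of UMI counts per gene, not normalized, with 32285 genes, 15707 different barcodes and 125100595 UMIs. The submitters' processing notes name Cell Ranger 6.0.1, Seurat 4.1.1 and mm10, and the sources used here give no filter on cells. The 4 samples cannot be separated in it, so no test was run. No mapped column was left unused (0). The other data types of the study were not used here.

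Members and gene lists were chosen with earlier results of these data known. Counts were summed per group and divided by group totals, with no barcode filter and no doublet caller. Intervals for levels are exact Poisson, for ratios conditional binomial, for shares Clopper-Pearson, all at 95% and for counting error only. A group at 0 was set to 3 counts. Genes named are those of the lists with the highest levels or ratios, the 25 highest and 10 lowest against the 3 duct groups, the 10 most like Ascl3 and Foxi1 over clusters, and defence genes. Leukocyte barcodes (n = 1258) had Ptprc and no Krt7, Krt18 or Krt19. Acinar barcodes (n = 1965) had 10000 UMIs or more, with Mucl2 at 4000 per 10000 or more. Clusters came from scanpy 1.11.5 with leidenalg 0.10.2, log-normalized to 10000, with 1992 variable genes, 20 principal components, 15 neighbours and a resolution of 0.5. Likeness used log2(level + 0.1). Other steps ran in Python 3.11.15 (matplotlib 3.10.9, pandas 2.3.3, scipy 1.17.1, numpy 2.4.6). Positions of all 55 genes looked up matched GENCODE M21 by identifier, and upstream windows came from RefSeq promoter sequences. On simulated counts for the kallikrein-rich comparison (10192 genes, 200 changed 4-fold), 100% of raised and 98.9% of lowered genes passed 2-fold, and 1.91% of unchanged genes did. Alternatives changed the rule's limits, the barcodes, scaling, depth, free RNA, count filter, fold and clustering. Results for a few genes are not reported here, though counts over lists include them.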

Additional observations from a re-analysis of the deposited data

How the results depend on the processing

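No paired analysis was possible because no result comes from a test and cells carry no sample. With at least 1 UMI required, 1908 barcodes were members, with 452 genes higher and 2174 lower against kallikrein-rich cells, 549 and 3284 against Slc13a2/Slc9a3 cells, and 212 and 6344 against other luminal cells. With 3 UMIs, 968 were lower against other luminal cells. Leaving out the 10% of barcodes with most UMIs gave 2203 and 311 against kallikrein-rich and 737 and 591 against other luminal cells. Against other luminal cells, totals without secretory transcripts gave 761 and 548, and the median ratio set to 1 gave 717 and 585. The mean over cells gave 2116 higher against kallikrein-rich, and 711 and 806 against other luminal cells. Thinning to 1000 UMIs gave 1647 and 222 against kallikrein-rich cells, and 511 lower against other luminal cells. With no count filter, there were 1230 and 2470, 4077 lower against Slc13a2/Slc9a3 cells, and 600 and 4434. A fold of 4 gave 174 and 127, 356 and 263, and 90 and 250. Both of the next settings were added after seeing the data. The secretory limit gave 1364 higher against kallikrein-rich, and 908 and 584 against other luminal cells. Cells of cluster 3 alone against barcodes outside it gave 2778 higher, 2365 and 540, and 1055 and 808. At a resolution of 1.0, 70.3% of the cells shared a cluster.

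Of 276 ratios of 92 named genes, 10 of 3668 alternative values reversed. The log2 ratio of Mup4 to kallikrein-rich cells became -0.93 without the deepest barcodes, -0.25 as a mean over cells, -0.64 thinned, -1.10 under the secretory limit and -2.14 in cluster 3. It became -1.05 against Slc13a2/Slc9a3 cells in cluster 3 and -0.72 against other luminal cells under the limit. Bpifa2 against other luminal cells became -0.78 under the limit and -0.43 in cluster 3, and Pigr 1.69 without mucous barcodes. The cause of the other changes was not tested. Of 2534 alternative values of the 191 ratios past 2-fold, 160 fell under 2-fold with the same sign. Depth limits rare transcripts, since 1 UMI is all that many cells could show, and animals and glands cannot be told apart. Free RNA was estimated at 268 UMIs per droplet.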

Other observations

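Genes that lie beside Ascl3 and Foxi1 on the chromosome were looked up after Nrip3 was found to be most like Ascl3, so this choice followed the values. Nrip3, a nuclear receptor interacting protein gene, lies on chr7:109758055-109782025 (GRCm38, minus strand), 26328 bases from Ascl3 and on the same strand. Its level was 1.97 in Ascl3/Foxi1 duct cells, against 0.372 in kallikrein-rich, 0.0254 in Slc13a2/Slc9a3, 0.535 in other luminal cells and 0.0181 in leukocyte barcodes. Tmem9b, a transmembrane protein gene that stands between them at chr7:109735834-109752875, was at 1.25 against 0.479, 0.185, 0.783 and 0.293. Akip1, on the other side of Ascl3, was at 0.173 against 0.122, 0.172, 0.198 and 0.0997, and St5 at 0.457 against 0.642, 0.496, 0.678 and 0.0846. Over all the cells, Nrip3 was thus over 2-fold higher than in each other duct group, and Tmem9b was not in the comparison with other luminal cells. In the cells under the secretory limit Nrip3 was at 3.23 and Tmem9b at 1.98. Other luminal cells were all chosen under that limit, so Tmem9b then passed 2-fold against them too. Scube2, which lies beyond Nrip3, had no UMI in these groups. BC051019, the coding gene nearest to Ascl3 on the side of Akip1, had 9 UMIs in the cells. Of the 7 listed genes within 150 kb of Ascl3, 4 had 20 UMIs or more in the cells. Of 6 near Foxi1, 1 had, the noncoding RNA Gm12121, at 0.0526 against 0.00737 in kallikrein-rich cells and no UMI in the other duct groups.

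Kit, at a level close to that of Slc13a2/Slc9a3 and other luminal cells, was higher than in kallikrein-rich cells by 2.55 on the log2 scale (2.13 to 3.00).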
